A study of Mus musculus with 40 samples.

Results

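Colonic mucosa of conventional mice was compared with colonic mucosa of germ-free mice by real-time quantitative PCR. The comparison used 20 of the 40 samples of the series, 10 labelled CV with the group type conventional and 10 labelled germfree, the control of the series. Of the 224 TaqMan assays in the deposited table, the 214 with a measured threshold cycle (Ct) in at least 5 samples of both groups are described. The other 20 samples came from mice that had carried a single strain, Escherichia coli CEC or Escherichia coli Nissle, for 21 days (mono-associated). The labels give no time of colonisation for the conventional group, and the sources used here give no strain, age, sex or diet. By the design text equal amounts of RNA from the mice were combined before measurement, while 40 separate samples are listed, so it is not settled whether a sample is 1 mouse. What the p-values measure is therefore the spread between samples alone, and it may be technical.

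Germ-free mice are raised without any microbes, whereas conventional mice carry a complex community of bacteria that is densest in the colon. Only a mucus layer and a single sheet of epithelial cells separate these bacteria from the tissue. Pattern recognition receptors sense bacterial products there, and the epithelium makes mucus, antimicrobial peptides and enzymes that handle oxidants and foreign compounds. Comparisons of germ-free with conventional animals are a classical way to see which of these functions vary with the presence of microbes. Bulk mucosa mixes epithelial, immune and stromal cells, so fewer cells of a type and less RNA per cell cannot be told apart. The deposited table identifies assays by TaqMan assay ID alone and does not pair the IDs with genes. Genes, pathways and cell type markers could therefore not be assigned, the labelled tissue could not be checked against its markers, and IDs are printed only for the 2 assays with the largest rise and the 2 with the largest fall.

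Expression is given as log2 relative expression: the median Ct of a sample minus the Ct of the assay, so that higher values mean more template and 1 unit is about a doubling. The median was taken over the 203 assays without an undetermined well in any sample. The sample median Ct itself was lower in conventional mucosa. It was 21.96 ± 0.288 cycles (SD, n = 10) in conventional samples, from 21.62 to 22.38, and 22.47 ± 0.309 cycles (SD, n = 10) in germ-free samples, from 21.78 to 22.80. The ranges overlapped, and the difference of -0.51 cycles had a two-sided permutation p of 0.00214 (100000 resamples). Input of template and expression of the panel both enter a raw Ct, and their parts in this difference were not tested. A conventional sample had 6 to 11 undetermined assays of the 224, and a germ-free sample had 8 to 14.

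Of the 214 assays, 38 changed between the groups (17.8%; limma, Benjamini-Hochberg adjusted p under 0.05), 14 of them higher in conventional mucosa (6.54%) and 24 lower (11.2%). An unadjusted p under 0.05 was reached by 57. The rises were fewer and larger: the median log2 difference of the 14 was 2.07, and that of the 24 was -0.92, against -0.18 over all 214 assays. By more than 2-fold, 12 assays were higher and 9 lower; by more than 4-fold, 7 were higher and 1 was lower. The smallest difference among the 38 was 0.46 log2 units in size, and the median standard error over all assays was 0.27. In 10 of the 14 higher assays every measured conventional sample lay above the germ-free mean, and in 13 of the 24 lower assays every one lay below it. These same samples had selected the assays, so the counts are a description. Some assays without a call also had all 10 conventional samples on 1 side of the germ-free mean, and the share over all 214 was not counted. Many calls were near the threshold, since 20 of the 38 had an adjusted p between 0.03 and 0.05 (limma). Another 9 assays differed by more than 1 log2 unit without passing.

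**Figure D1:**
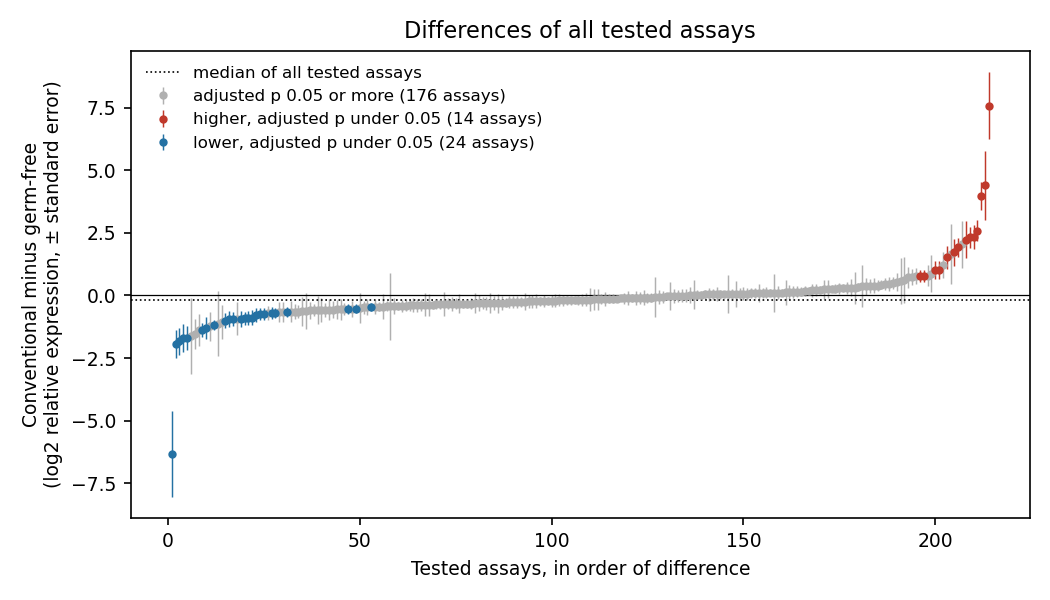
Log2 difference (conventional minus germ-free, ± standard error, y axis) of the 214 tested assays in order of size (x axis), with the 14 higher assays in red, the 24 lower in blue and the rest in grey; the dotted line is the median of all assays. A few rises stand far above the rest, while 1 fall reaches -6.33 and the other 23 lie between -1.93 and -0.46.

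Which direction held more calls depended on the normalizer. Without normalization, which shifted the median difference of all assays by 0.51 to 0.33, 19 assays were higher and 1 was lower. With the mean of the 10 most stable assays, which put that median at 0.05, 20 were higher and 6 lower. The median and the mean of the 153 assays measured in all 40 samples gave 14 higher and 25 lower, and 15 higher and 22 lower. Under all 5 normalizers 14 of the 38 calls held, 13 of the 14 higher assays and 1 of the 24 lower ones. The direction of the shifts largely sets this split. The lowest median difference of all assays under any normalizer was -0.20, close to the -0.18 of the main one. The larger shifts were all upward, which enlarges rises and shrinks falls, so these settings test the higher calls little. The count also rested on single samples. It was 22 without germ-free replicate 11 and 20 without germ-free replicate 20. It was 24, 25, 18 and 15 without conventional replicates 1, 3, 9 and 10 in turn, and sample quality weights raised it to 63. All 20 fits that left out 1 sample kept 11 calls, 6 higher and 5 lower, and the 6 higher ones also held under every normalizer. An assay left untested in any of these fits counts as not held. This applied to Mm01288386_m1 and Mm01320260_m1, described below, which passed in those of the fits that tested them.

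**Figure D2:**
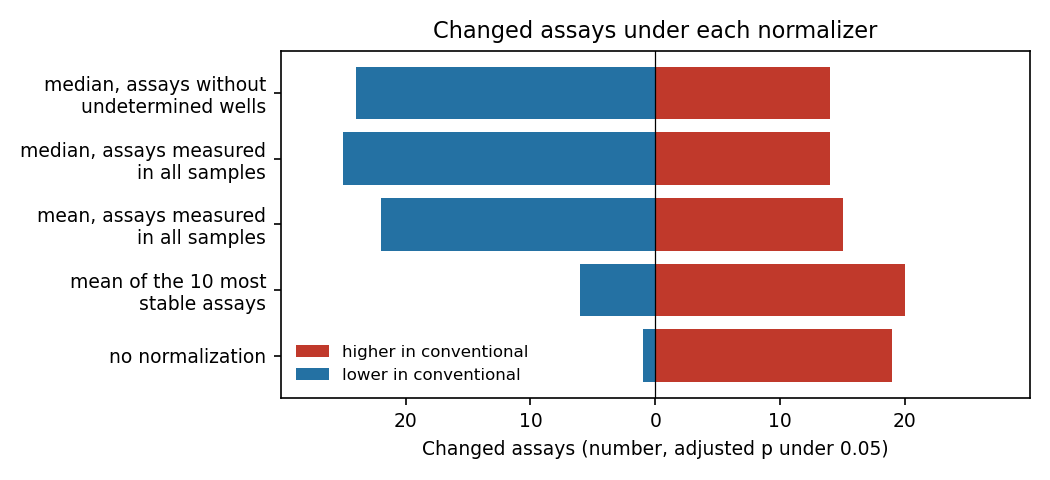
Number of assays past an adjusted p of 0.05 (limma, x axis) under each of the 5 normalizers (y axis), with assays higher in conventional mucosa to the right in red and lower ones to the left in blue. Higher calls number 14 to 20 under each normalizer, while lower calls range from 25 to 1.

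The largest rise was that of Mm00505670_m1. In conventional samples the lowest value was -5.91, the median 5.55 and the highest 7.32 log2 units, and in germ-free samples the lowest was -6.46, the median -4.56 and the highest -3.11. Conventional samples fell into 2 sets: 7 lay between 4.92 and 7.32, above every germ-free sample, and replicates 2, 3 and 4 lay at -3.82, -3.21 and -5.91, inside the germ-free range. The means were 2.83 ± 5.01 and -4.75 ± 0.964 (SD, n = 10 each), 7.58 log2 units apart (standard error 1.34), which is 191-fold (limma, adjusted p = 7.77e-05). The conventional mean lies between the 2 sets and describes neither. The fold was 319 without conventional replicate 2, 304 without replicate 3, 375 without replicate 4 and 1594 without all 3. With sample quality weights it was 102. Replicates 2, 3 and 4 are the low samples of this assay, so leaving them out could only raise the fold. The run without all 3 was added after seeing the data and gave the lowest adjusted p, 2.26e-11 (limma). The assay passed in every alternative run. Over the other runs the adjusted p went from 2.35e-06, without conventional replicate 4, to 0.0186 (limma, or the exact rank-sum test for the highest). Of the CEC samples 9 lay between -6.16 and -1.13 and replicate 8 at 6.08, and the Nissle samples lay between -5.93 and -3.52.

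The next largest rise was that of Mm01288386_m1. All 10 conventional samples had a measured Ct, whereas germ-free replicates 10, 20, 21, 22 and 32 were undetermined, a difference in detection that did not pass Fisher's exact test (exact p = 0.0325, adjusted p = 0.683). With a Ct above 30 also taken as undetermined it did pass. Conventional wells reached 29.34 cycles, and measured germ-free wells ran from 29.91 to 30.88, so that outcome depends on the cut-off. The 5 measured germ-free samples lay at -9.06, -8.24, -8.06, -7.54 and -7.31. Conventional replicates 5, 8 and 7 lay at 0.49, 2.64 and 3.31, far above the other 7, which ran from -7.35 to -4.91 and met the germ-free values at their lower end. The means were -3.65 ± 4.13 (SD, n = 10) and -8.04 ± 0.681 (SD, n = 5), 4.39 log2 units apart (standard error 1.38), which is 21.0-fold (limma, adjusted p = 0.0307). The 3 high samples are not the 3 that were low for Mm00505670_m1. The fold was 12.3 without conventional replicate 7, 12.9 without replicate 8 and 48.6 without replicates 2, 3 and 4. An alternative run set undetermined wells 1 cycle above the highest Ct of any assay (36.67). The fold there was 247 (limma, adjusted p = 0.000625, the lowest of its alternatives). Measured germ-free wells of this assay reached only 30.88 cycles, so the size of that fold depends on the value chosen. The call was lost in a fit of the 2 groups alone (limma, adjusted p = 0.0845, the highest). CEC was measured in 5 samples and Nissle in 8, with means of -7.90 ± 1.12 and -7.68 ± 1.14 (SD).

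The largest fall, of Mm01320260_m1, rests on few measured wells. The 5 measured conventional samples lay at -8.77, -8.53, -8.25, -8.14 and -7.69, and the other 5 values (replicates 1, 5, 6, 8 and 9) had been filled in before deposit and do not enter. Germ-free samples fell into 3 sets: replicates 22, 30, 31 and 21 lay at 1.35, 1.71, 1.84 and 2.30, replicates 32, 33 and 10 at -7.52, -7.37 and -5.95, and replicates 11, 12 and 20 were undetermined. All measured germ-free samples lay above all measured conventional ones, but the undetermined ones stand for low or absent template. The means were -8.28 ± 0.411 (SD, n = 5) and -1.95 ± 4.71 (SD, n = 7), a log2 difference of -6.33 (standard error 1.70) that makes conventional samples 80.3-fold lower (limma, adjusted p = 0.0172). In the run that set undetermined wells 1 cycle above the highest Ct of any assay (36.67), the assay was 5.21-fold lower. It did not pass there (limma, adjusted p = 0.547). Measured wells of this assay in the 2 groups reached only 30.91 cycles, so that setting puts undetermined germ-free samples below every measured conventional one. The result of that run depends on the value chosen. Over its other alternatives the adjusted p went down to 6.59e-05 (limma). Leaving out germ-free replicate 10, 32 or 33 gave 128-fold, 153-fold or 150-fold, and leaving out replicate 21, 30 or 31 gave 49.2-fold, 52.6-fold or 51.9-fold. It was 203 with sample quality weights. Means of -2.12 ± 3.42 in CEC and -3.78 ± 1.47 in Nissle samples (SD, n = 10 each) lay above the conventional mean. CEC replicate 6 lay at 4.97, and the other 9 averaged -2.91 ± 2.49.

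The fall of Mm00484138_m1 was smaller, and neither group had a gap of more than 3 log2 units. Conventional samples had a lowest value of -2.77, a median of -1.92 and a highest of -0.69, and germ-free samples had -2.23, 0.12 and 2.31. All 10 conventional samples lay below the germ-free mean, and the ranges overlapped through germ-free replicates 20 and 31, at -2.23 and -0.73. The means were -1.76 ± 0.767 and 0.17 ± 1.23 (SD, n = 10 each), a log2 difference of -1.93 (standard error 0.55) that makes conventional samples 3.81-fold lower (limma, adjusted p = 0.0222). It did not pass without normalization (2.68-fold lower; limma, adjusted p = 0.0548) or with the 10 stable assays (3.25-fold; 0.0551). Without conventional replicates 2, 3 and 4 it was 3.77-fold lower, close to the fold over all samples, with an adjusted p of 0.0525 (limma). The lowest adjusted p in any alternative was 0.000331 (limma). The mono-associated groups, whose comparisons share these germ-free samples, had means of -1.56 ± 1.90 in CEC and -2.21 ± 0.89 in Nissle samples (SD, n = 10 each). CEC replicate 6 lay at 3.36, and the other 9 averaged -2.11 ± 0.829.

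**Figure D3:**
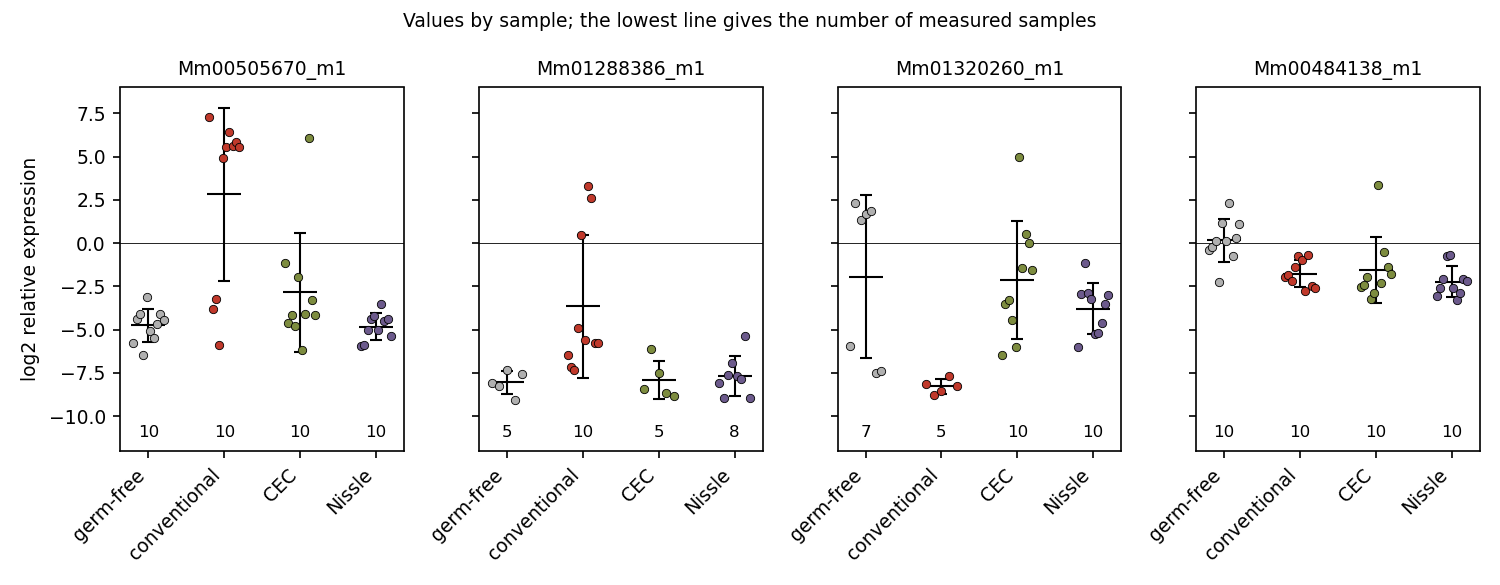
Log2 relative expression (y axis) of the 4 assays with the largest changes in every measured sample of the 4 groups (x axis), with horizontal lines for the mean and bars for ± SD; the number of measured samples stands at the bottom. In the first 3 panels samples of 1 group fall into separate sets, as for Mm00505670_m1, where 7 conventional samples lie above 4.9 and 3 inside the germ-free range.

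The assays with the smallest p-values were mostly others. An adjusted p under 0.001 (limma) was reached by 8 assays, 6 higher and 2 lower, of which Mm00505670_m1 is 1. The smallest belonged to an assay with a conventional minimum, median and maximum of -3.17, 0.44 and 1.77, against -4.75, -3.77 and -3.13 in germ-free samples. Its 15.8-fold rise (difference 3.98, standard error 0.55; limma, adjusted p = 2.72e-06) was shared by 9 of 10 conventional samples, at -0.45 or above, while replicate 5 lay at -3.17, beside the highest germ-free sample. The assay averaged 0.16 ± 1.37 in conventional samples, -3.82 ± 0.494 in germ-free ones, -0.77 ± 2.03 with CEC and -2.22 ± 0.498 with Nissle (SD, n = 10 each). The CEC mean was raised by replicate 6, at 4.91, and was -1.40 ± 0.417 over the other 9.

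The next assay was 6.0-fold higher (difference 2.58, standard error 0.41; limma, adjusted p = 2.69e-05). Conventional samples ran from 2.40 through a median of 5.58 to 6.44, and germ-free samples from 1.63 through 2.79 to 4.28. Conventional replicate 5, at 2.40, was again the only conventional sample inside the germ-free range. Its mean was 5.41 ± 1.14 in conventional and 2.83 ± 0.705 in germ-free samples, and the CEC and Nissle means of 0.41 ± 1.09 and 1.12 ± 0.779 (SD, n = 10 each) lay below the germ-free mean. The CEC mean was 0.66 ± 0.799 without CEC replicate 6, which lay at -1.84.

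For 2 higher assays all 10 conventional samples lay above all 10 germ-free samples. The first ran from 3.26 through a median of 4.18 to 5.07 in conventional samples and from 0.67 through 1.96 to 2.61 in germ-free samples, with means 2.33 log2 units apart (standard error 0.41; limma, adjusted p = 7.77e-05). The second ran from -4.08 through -2.96 to -2.11 against -6.77 through -4.98 to -4.29, with means also 2.33 apart (standard error 0.48; limma, adjusted p = 0.000585). Both were 5.01-fold higher. Mm01320260_m1 was measured in only 5 conventional and 7 germ-free samples, and its lowest germ-free value, -7.52, lay close to its highest conventional one, -7.69. With it, and with its undetermined wells left out, separate ranges were found for 3 of the 214 assays (1.4%). The first had means at or below the germ-free mean of 1.93 ± 0.558 in the mono-associated groups, 0.82 ± 1.51 in CEC and 1.63 ± 0.855 in Nissle, while the second had -2.44 ± 1.88 and -2.85 ± 0.438 (SD, n = 10 each), near the conventional mean of -2.93 ± 0.691. Without CEC replicate 6, which lay at 4.80 and 2.51, the CEC means were 0.38 ± 0.602 and -2.99 ± 0.766.

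The last of the 6 was 3.77-fold higher, with a conventional minimum, median and maximum of -0.25, 0.98 and 2.09 and germ-free values of -1.38, -0.96 and -0.07 (difference 1.91, standard error 0.40; limma, adjusted p = 0.000585). Only conventional replicate 5, at -0.25, lay inside the germ-free range. The 6 are the higher assays that held without any 1 sample and under every normalizer, although the normalizers test rises little.

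Both lower assays in this set had small SDs within groups, from 0.24 to 0.507 log2 units. The first ran from 0.99 through a median of 1.36 to 2.42 in conventional samples and from 2.03 through 2.66 to 2.85 in germ-free samples, which made it 2.25-fold lower (difference -1.17, standard error 0.21; limma, adjusted p = 7.77e-05). The second ran from 1.16 through 1.41 to 2.95 against 2.51 through 2.94 to 3.63, which made it 2.61-fold lower (difference -1.38, standard error 0.28; limma, adjusted p = 0.000585). In each, conventional replicate 5 was the only conventional sample inside the germ-free range. Each of these calls held without any 1 sample but not under every normalizer. The CEC and Nissle means were 2.27 ± 0.699 and 2.31 ± 0.31 for the first and 2.77 ± 1.10 and 2.47 ± 0.337 for the second (SD, n = 10 each), between the conventional and germ-free means. Without CEC replicate 6, at 3.53 and 5.66, the CEC means were 2.13 ± 0.574 and 2.45 ± 0.432.

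Over all assays, samples of the groups lay apart but the conventional samples were uneven. The root mean square log2 difference between samples over the 153 assays measured throughout had a median of 1.03 within conventional (45 pairs), 0.875 within germ-free (45 pairs) and 1.35 between the groups (100 pairs). On the first of the principal components, with 43.4% of the variance, conventional samples averaged 5.79 ± 4.5 and germ-free samples -5.79 ± 1.27 (SD, n = 10 each). The scores did not overlap: the lowest conventional sample stood at -1.12 and the highest germ-free sample at -4.08. Conventional replicates 2, 3 and 4 scored 0.28, 0.71 and -1.12 and replicate 5 scored 3.28, while the other 6 ran from 8.37 to 11.10. The median difference to germ-free samples was 0.948 for replicate 2 and 0.966 for replicate 4, smaller than their 1.09 and 1.19 to conventional samples. For replicates 3 and 5 both were alike, 1.18 against 1.17 and 1.08 against 1.07, and the other 6 were at 0.844 to 0.960 from conventional and 1.38 to 1.56 from germ-free samples. The median Ct of replicates 2, 3, 4 and 5 was 22.17, 21.83, 22.38 and 22.32 cycles, and that of the other 6 ran from 21.62 to 22.15. Whether the amount of template has a part in these positions was not tested. Without replicates 2, 3 and 4 the count of changed assays was 15, 9 higher and 6 lower, 14 of them among the 38.

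**Figure D4:**
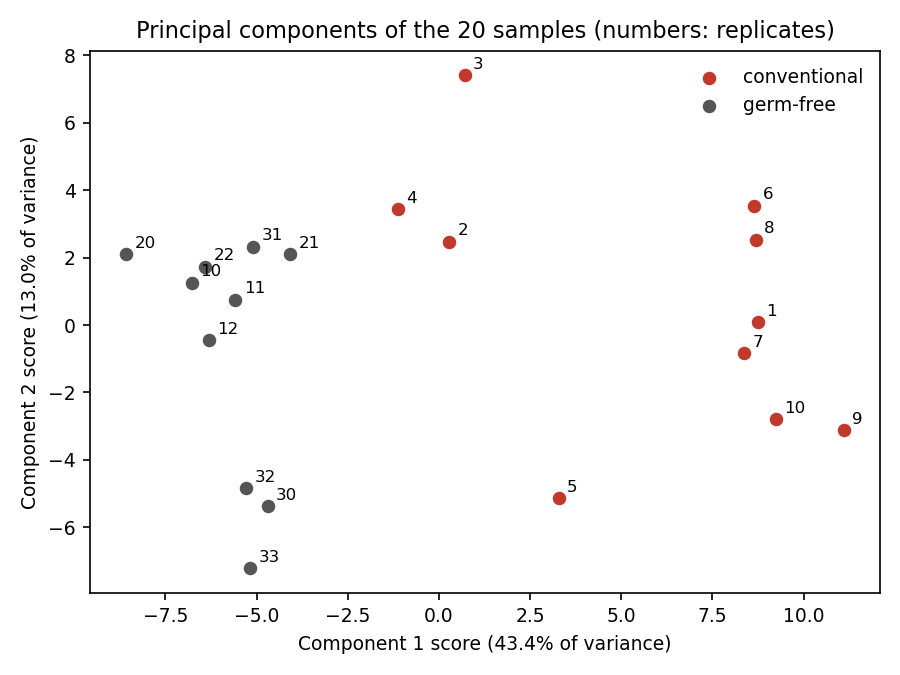
Scores of the 20 samples on the first (x axis, 43.4% of variance) and second (y axis, 13%) principal components of log2 relative expression over 153 assays, with replicate numbers beside the points. Conventional samples (red) and germ-free samples (grey) do not overlap on the first component, where conventional replicates 2, 3 and 4 lie nearest to the germ-free samples.

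Germ-free samples were closer on the first component, but replicates 30, 32 and 33 scored -5.37, -4.85 and -7.21 on the second, against -0.45 to 2.33 for the other 7. Germ-free replicate 12 had the largest median difference to its own group, 1.26, against 0.696 to 0.979 for the others. The spread of single assays was close in both groups, with a median SD of 0.461 in conventional and 0.481 in germ-free samples, and it was larger in conventional samples for 107 of the 214 assays.

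How far each conventional sample took part in the changes was counted over the 38 assays that these same samples had selected, so the counts are a description. Conventional replicate 5 lay inside the germ-free range in 8 of 14 higher and in 20 of 23 measured lower assays. Replicate 9 did so in 0 of 14 higher and 3 of 23 lower assays, and replicate 10 in 1 of 14 and 3 of 23. Replicate 7 was inside the range in 1 of 14 higher and 15 of 24 lower assays. Replicates 2, 3 and 4, which were low for Mm00505670_m1, were inside it in 5 of 14, 5 of 12 and 4 of 14 higher assays, and in 9, 8 and 14 of 24 lower ones.

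**Figure D5:**
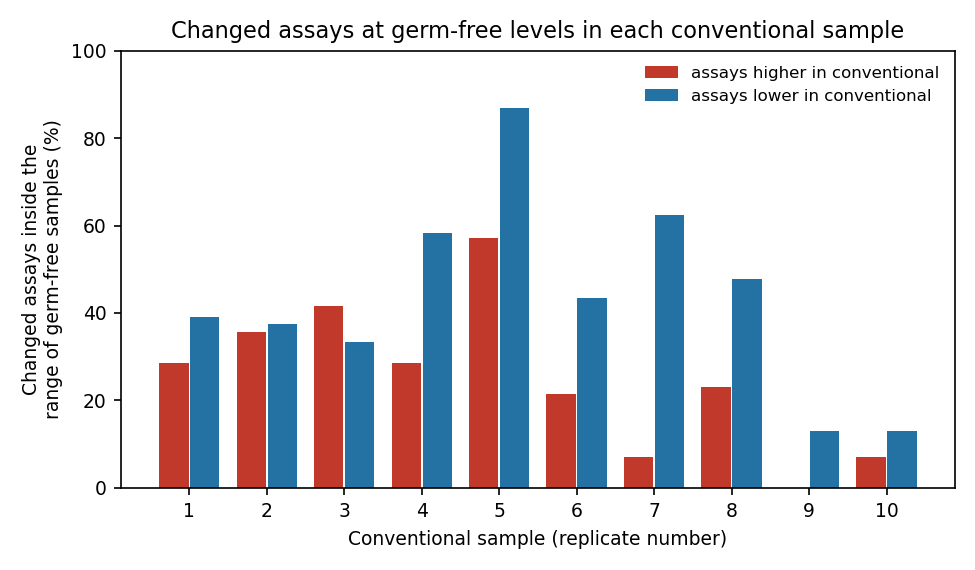
Percentage of the changed assays (y axis) for which each conventional sample (x axis, replicate number) lay within the lowest and highest germ-free values, for higher (red) and lower (blue) assays measured in that sample. Replicate 5 has the tallest bars, 8 of 14 and 20 of 23 assays; replicates 9 and 10 have the shortest blue bars, and replicate 9 has no red one.

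Changed assays were spread over the range of relative levels, which for different assays also depend on how well each amplifies. Of the 72 assays with the lowest mean level 7 were higher and 7 lower, of the 71 in the middle 5 and 9, and of the 71 with the highest 2 and 8. The median size of a difference over all assays in these classes was 0.57, 0.27 and 0.31 log2 units. The suffix of a TaqMan assay ID states the probe's placement. The letter m stands for a probe across an exon junction and s for one within a single exon. Assays with s or g may also detect genomic DNA. Over all 214 assays, 6.54% were higher and 11.2% lower, with a median difference of -0.18. All 14 higher assays were among the 179 with the suffix m1, which make up most of the panel, beside 18 lower ones and a median of -0.17. Of the 18 assays with s1 none was higher and 5 were lower, with a median of -0.52. No difference between suffixes was tested. Of the 15 with g1 none changed, and of the 2 with gH 1 was lower. Genomic DNA in the samples was not measured.

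No assay passed the test of detection. An undetermined well occurred in 21 assays, 3 of them undetermined in all 20 samples. By Fisher's exact test 0 of the 21 passed after Benjamini-Hochberg adjustment (0%), and 1 had an unadjusted p under 0.05, Mm01288386_m1. In total 92 wells were undetermined in conventional and 109 in germ-free samples. The 10 assays that were not tested for level comprise these 3 and 7 that were measured in some samples but in fewer than 5 of at least 1 group.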

How the data were processed

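Per the labels' protocols, the mirVana kit was used to isolate total RNA, and a custom TaqMan OpenArray, on which each tiny well runs 1 probe assay, to measure it. The authors deposited raw threshold cycles, per the file headers, which also call the table a truncated example, so more assays may exist that are not analysed here. The sources used here give neither the threshold setting nor quality filters. A Ct of exactly 40 was read as undetermined (201 of 4480 values in both groups, 4.49%). Another 79 values (1.76%, in 36 assays) matched, within 1e-07 cycles, the mean of their group's remaining values or of all but 1 of these, and were taken as filled in before deposit. Both kinds were left missing, although filled-in values entered the sample median as deposited. Measured Ct ran from 13.06 to 36.67.

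Groups and replicate numbers were taken from the sample titles. Relative expression was tested with limma 3.58.1 (R 4.3.3), functions lmFit and eBayes, fitted once to the 4 groups with the contrast conventional minus germ-free, with Benjamini-Hochberg adjustment over the 214 tested assays at 0.05; all p-values are two-sided. The normalizer takes the typical assay as unchanged and a cycle as a doubling. Fisher's exact test compared detection, and a permutation test the median Ct (scipy 1.17.1). Depth in reads does not apply, and precision is limited by the 10 samples per group. The steps of the test were checked on simulated data. Alternatives changed the normalizer, missing values, filters, samples in the fit, weights and the test, and left out single samples; leaving out conventional replicates 2, 3 and 4 together was added after seeing the data. The comparison, the rules and the lists were chosen with earlier results of these data known. Printed IDs are the 2 largest rises and 2 largest falls past the threshold. Other assays were described for an adjusted p under 0.001 or separate ranges, a choice made after the values were seen. Gene lists, cell type markers and reference genes could not be matched to assay IDs and were not used.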

Additional observations from a re-analysis of the deposited data

Results flagged for a closer look

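A single sample far from the rest was looked for in 24 groups of sample values, and 5 had one. The 24 were 11 assays in both groups, where at least 4 samples were measured, and the sample median Ct. About 1 in 20 such groups would have one by chance if they were independent and normally distributed. These groups share samples, and their assays were chosen by their differences, so that rate is no direct standard for the 5. Conventional replicate 5 was that sample in 3 of the 5. In the assay with the smallest p-value it lay at -3.17 log2 units, with the other conventional samples from -0.45 to 1.77. In the assay with the next smallest it lay at 2.40, with the others from 5.05 to 6.44. In the lower assay with the 2.61-fold change it lay at 2.95, with the others from 1.16 to 1.75, and in the same assay germ-free replicate 30 lay at 3.63, with the other germ-free samples from 2.51 to 3.06. In the lower assay with the 2.25-fold change germ-free replicate 10 lay at 2.03, with the others from 2.43 to 2.85. The cause of these values was not tested.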

How the results depend on the processing

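The count of 38 changed assays was 20 without normalization, 63 with sample quality weights and 15 without conventional replicates 2, 3 and 4, and ranged from 15 to 42 when 1 sample was left out; the cause of these changes was not tested. In the other settings it stayed between 26 and 47, with 26 for the 10 stable assays, 47 for a fit of the 2 groups, 42 for the exact rank-sum test (31 of the 38 among them) and 45 without CEC replicate 6. The 30 assays called when only those measured in all 20 samples were tested came from 168. Detection differed in 0 assays, but in 1 of 32, Mm01288386_m1, with Ct above 30 as undetermined (Fisher's exact test; 2 at an unadjusted p under 0.05). The difference in median Ct lay between -0.58 and -0.47 without any 1 sample and at -0.53 over the 153 assays measured in all samples. The named assays kept their direction in every alternative that could be fitted; Mm01288386_m1 and Mm01320260_m1 had no test where fewer than 5 samples of a group were left or all 20 were required. No paired analysis was possible because the groups share only replicate number 10. Normalization to reference genes and the gene list results were not run, as no assay could be named. A median over a chosen panel removes any shift that most of its assays share, which limits what the small falls can show.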

Other observations

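A gap of more than 3 log2 units within a group also occurred in 2 assays that did not change between the groups, both in germ-free samples and both through 1 sample. In the first, 9 samples lay between -7.30 and -4.23 and 1 at 6.65. In the second, 9 lay between -8.91 and -2.55 and 1 at -14.89, which comes from the highest measured Ct of all samples, 36.67. With the 3 assays of the largest changes, such gaps were found in 5 of the 214 tested assays, 2 in conventional and 3 in germ-free samples.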
